A study of Coccomyxa subellipsoidea C-169 with 6 samples.

Results

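Among the abundant transcripts of Coccomyxa subellipsoidea C-169, 211 genes kept nearly the same level at both CO2 levels. They were chosen by their measured values: a mean of at least 100 CPM, a count scaled to a common library size, over the 6 libraries, and a highest CPM no more than 1.3 times the lowest. The set held 211 of the 2291 genes that reached the mean of 100 CPM (9.21%) and 2.24% of all 9409 genes in the table. CPM is the deposited count divided by the sum of the library's counts and multiplied by 1000000, so it is a share of the library and not an amount of RNA per cell. A shift in the total RNA of a cell is not seen in such shares, and fewer cells and less RNA per cell cannot be told apart.

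The libraries came from digital gene expression (DGE) sequencing of the strain C-169, a unicellular green alga, grown in Bold's Basal Medium under continuous light and harvested on day 4. CG denotes 3 libraries from cultures supplied with 2% CO2, and AG denotes 3 libraries from cultures at 0.04% CO2, the level of air. Both groups are of the same strain, and the study calls the libraries biological replicates. The study used its DGE libraries to ask which genes respond to CO2. It checked fold changes by qRT-PCR with the ribosomal protein gene RibL5 as internal control, and reports a high correlation with DGE. The authors took RibL5 on the basis of earlier references and of their own transcriptome data.

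A reference gene serves as the denominator of a relative expression measurement. Every change in the denominator passes into each target's fold change, so a transcript that stays level across the conditions compared is sought. RibL5 encodes a protein of the large cytoplasmic ribosomal subunit that binds the 5S rRNA. Genes for ribosomal proteins, cytoskeletal proteins and enzymes of central metabolism are common choices, although in algae the supply of CO2 alters growth and carbon metabolism.

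The primers of RibL5 are shown because they define the denominator of the qRT-PCR. They are taken from the study's primer list and written 5′ to 3′.
RibL5 forward: cacgtctgaggcttactaccc
RibL5 reverse: tctccagcaacagtggcata

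Library sums were 2674507 to 4969639 counts, and every member had at least 240 counts in CG 1, the shallowest library. At 100 CPM, counting error alone gave an SD of 4.49 to 6.11% per library. CG 1 stood apart from the other CG libraries. The correlation of log2 CPM across genes was 0.941 between CG 1 and CG 2, 0.927 between CG 1 and CG 3 and 0.990 between CG 2 and CG 3, and it was 0.988 to 0.990 among AG pairs. Results that rest on CG 1 are therefore given with and without it where both were computed. Between the groups, edgeR's quasi-likelihood test called 52.2% of the 8637 genes tested at an adjusted p under 0.05, 27.3% higher and 25.0% lower in CG.

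The limit of 1.3 left out most abundant genes. Of the 211 members, 12 had a ratio of highest to lowest CPM of at most 1.1, 74 lay above 1.1 and up to 1.2, and 125 lay above 1.2. Their median ratio was 1.22, against 2.22 in the other 2080 abundant genes. A ratio over 2 was found in 53.2% of all abundant genes and a ratio over 3 in 30.4%. Within the 3 CG libraries 997 abundant genes stayed within 1.3, within the 3 AG libraries 2054 did, and 917 did so in both groups taken separately. Requiring 1 range over all 6 libraries left the 211. Inside a group the members' median ratio was 1.12 in CG and 1.1 in AG, while that of the other abundant genes was 1.42 in CG and 1.13 in AG. The coefficient of variation over the 6 libraries had a median of 7.59% in members and 32.5% in the other abundant genes. The rule itself limits the members' ratios and coefficients of variation, so nothing is read from these contrasts. The members' mean levels spanned 100.2 to 1247 CPM.

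**Figure D1:**
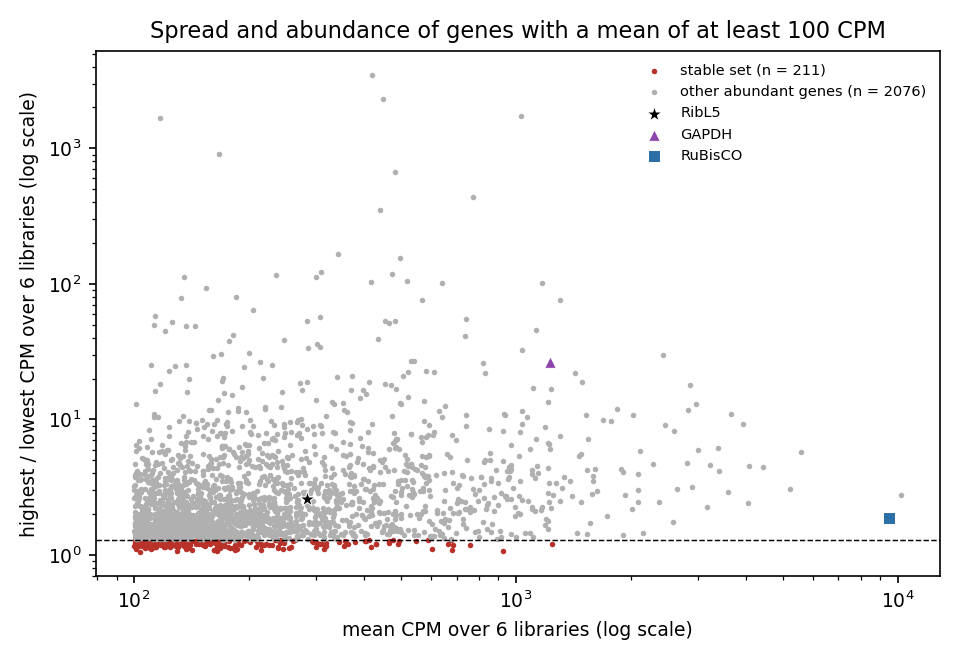
Ratio of the highest to the lowest CPM over the 6 libraries (log axis) against mean CPM (log axis) for 2287 genes with a mean of at least 100 CPM; 4 further genes with 0 counts in a library have no finite ratio and are not drawn. Red points are the 211 members, under the dashed line at 1.3, and the named genes RibL5 (2.58), GAPDH (26.5) and RuBisCO (1.88) lie above it.

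By CPM, the flattest transcript was gene 53991, for which the files give no product name. It had 106, 102 and 101 CPM in CG 1, CG 2 and CG 3, and 104, 103 and 105 CPM in AG 1, AG 2 and AG 3, a ratio of 1.04. The libraries of both groups lay among each other. Gene 28166 combined flatness with abundance, at 899, 903 and 927 CPM in CG and 965, 902 and 941 CPM in AG, with a ratio of 1.07. Gene 66187 had 169, 159.7 and 162 CPM in CG, and 169, 171 and 159 CPM in AG. Gene 65149 had 128, 131 and 133 CPM in CG, and 131, 124 and 133 CPM in AG. The groups overlapped in all 4 of these genes.

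Gene 35259 had 142, 148 and 141 CPM in CG and 141, 137 and 141 CPM in AG. Its CG libraries all lay above its AG libraries, by a narrow margin. Gene 29004 had 211, 207 and 207 CPM in CG, and 224, 224 and 218 CPM in AG. Here every CG library lay below every AG library, although the ratio was only 1.08. Gene 63391 had 154, 160.0 and 167 CPM in CG and 162, 162 and 164 CPM in AG. Gene 47354 had 646, 682 and 664 CPM in CG and 698, 705 and 679 CPM in AG. Groups overlapped in both of these genes. Gene 26407 had 178, 195 and 183 CPM in CG and 184, 179 and 183 CPM in AG. Gene 33883, the last of the 10 with the lowest ratios, had 159, 167 and 171 CPM in CG and 157, 161 and 156 CPM in AG, a ratio of 1.097.

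The order among the flattest genes was not resolved by the depth. The dispersion index, the variance over the 6 libraries divided by that expected from counting alone, was 0.0887 for gene 53991 and under 1 in 13 members. It was under 2 in 61 members and in 0 of the other abundant genes, a contrast that the ratio rule itself brings about. The index had a median of 3.07 among members, so that most of the set varied by more than counting error. Of the 10 flattest genes, 28166 and 63391 had fractional counts, in 4 and 3 libraries.

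**Figure D2:**
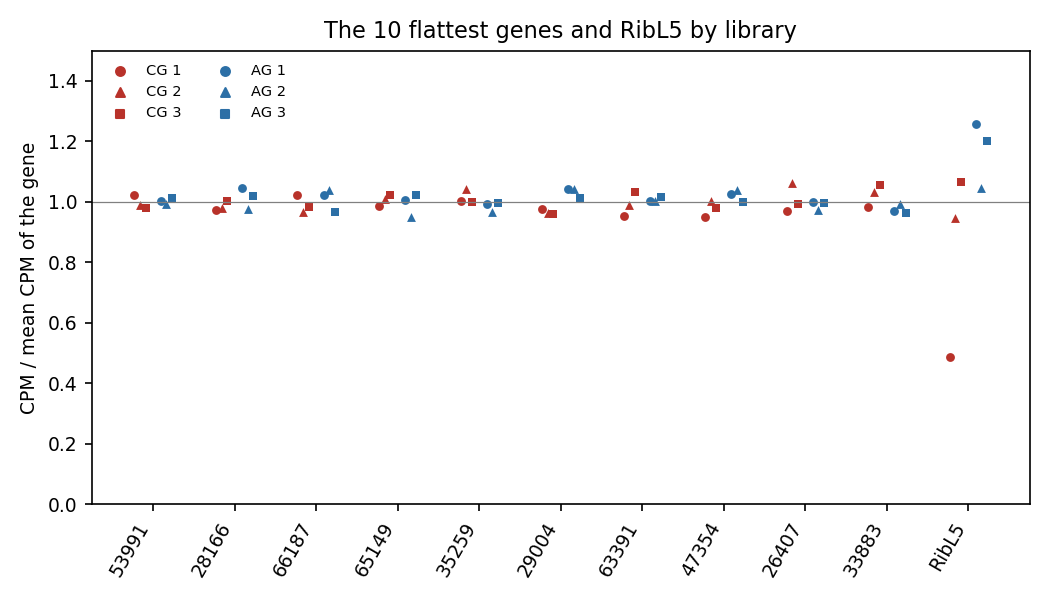
CPM of each library divided by the mean CPM of the gene (vertical axis), with the CG libraries left of the AG libraries, for the 10 members with the lowest ratios and RibL5. The points of the 10 flattest genes lie close to 1, and CG 1 lies far below the other libraries in RibL5.

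The most abundant member was gene 28895, with 1265, 1142 and 1142 CPM in CG and 1368, 1273 and 1290.0 CPM in AG. All of its CG libraries were below all of its AG libraries. Gene 46779 had 819, 691 and 758 CPM in CG and 793, 716 and 773 CPM in AG, and its groups overlapped. Gene 52408 had 697, 733 and 729.8 CPM in CG, and 621, 686 and 649 CPM in AG, with no overlap. The others among the 5 most abundant members, 28166 and 47354, were also among the 10 flattest. Levels of different genes are compared per transcript length, in RPKM, which divides CPM by the transcript length in kilobases. By RPKM, gene 28895 again led the set, at a mean of 942 RPKM. It was followed by gene 15265 at 847 RPKM, a gene singled out after its values were seen and the shortest member, at 369 nt.

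The genes that the study names lay mostly far outside the limit. Of 37 such genes with a mean of at least 100 CPM that are reported here, 36 had a ratio over 2, and the other was RuBisCO, the carbon-fixing enzyme, at 1.88. These genes were picked by the study largely for their response to CO2 in these libraries. GAPDH, of an enzyme family often used as a reference in other organisms, had 1672, 2665 and 2717 CPM in CG and 103, 112 and 117 CPM in AG (gene 26453). Whether gene 26453 is a glycolytic or a Calvin cycle form was not resolved here.

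RibL5 did not meet the rule. It had 138, 268 and 302 CPM in CG 1, CG 2 and CG 3, and 356, 296 and 340.3 CPM in AG 1, AG 2 and AG 3, from 369, 730 and 1129 counts in CG and 1413, 1134 and 1691 counts in AG. The groups overlapped, because CG 3 lay above AG 2, and CG 1 lay far below the other libraries. The means were 236 ± 86.5 CPM in CG and 331 ± 31.0 CPM in AG (SD, n = 3 each). The ratio of 2.58 ranked 1440 among the 2291 abundant genes. Without CG 1 the ratio was 1.33, just above the limit, and its rank was not computed. The log2 fold change of RibL5 was -0.58 (SE 0.280, edgeR adjusted p = 0.124), which missed the threshold of 0.05. Without CG 1 it was -0.31 (SE 0.103, edgeR adjusted p = 0.0163), which passed it. Over all alternatives the adjusted p ran between 0.0163 and 0.264.

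Set against the geometric mean CPM of the 211 members, which was 171.6 to 175.4 in every library, RibL5 stood at 80.0, 154 and 172% in CG 1, CG 2 and CG 3, and at 208, 169.6 and 197% in AG 1, AG 2 and AG 3. The log2 ratio averaged 0.36 ± 0.60 in CG and 0.93 ± 0.15 in AG (SD, n = 3 each). The difference was -0.57, and -0.23 without CG 1. The mean pairwise variation of a gene against the members, the M value used to rank reference genes, was 0.508 for RibL5 and 0.112 to 0.207 for members, with a median of 0.148. M was taken over all 6 libraries and was not computed without CG 1. The log2 ratio of RibL5 to the set was -0.32 in CG 1 and 0.62 to 1.05 in the other libraries. The members' M values and their level geometric mean follow from the rule that chose them.

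The 15 other genes of the primer list show what the denominator does to a fold change. The geometric mean of the set is level by the rule, so dividing by the set nearly returns the values in CPM. Such a denominator is no independent check of RibL5. Dividing by RibL5 in place of the set made every ratio of CG to AG 1.49 times larger, or 1.17 times without CG 1. GAPDH (26453) had a mean log2 difference of CG minus AG of 4.94 relative to RibL5 and 4.37 relative to the set. Leaving out CG 1 gave 4.82 and 4.59. RuBisCO (65708) had a difference of 0.86 relative to RibL5 and 0.29 relative to the set, against 0.30 in CPM. Without CG 1 these differences were 0.81, 0.57 and 0.59. Acetyl-CoA acyltransferase (54043), which releases acetyl-CoA in fatty acid breakdown, had -2.12 relative to RibL5 and -2.70 relative to the set, or -2.97 and -3.20 without CG 1. Directions were the same with both denominators for all 15 genes, 14 higher and 1 lower in CG. Differences beyond 1 in size on the log2 scale numbered 13 relative to RibL5 and 11 relative to the set, and without CG 1 they numbered 13 with either denominator. By edgeR on the counts, 10 of the 15 rose and 1 fell.

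The denominator also moved the overlap of the groups and the spread within them. The groups did not overlap in 14 of the 15 targets relative to RibL5, in 10 relative to the set and in 10 by CPM. Dividing by RibL5 in place of the set also raised every log2 difference of CG minus AG by 0.57. These counts are therefore no measure of spread alone. Without CG 1 the groups did not overlap in any of the 15 on each of these scales. By CPM over all 6 libraries, 62.0% of the 8637 genes tested did not overlap. No such share is given here relative to either denominator or without CG 1, so nothing is read from the counts of targets. RuBisCO was one of the targets that overlapped by CPM and not relative to RibL5. Its CPM was 6821, 12831 and 12249 in CG, and 8580.4, 8097 and 8303 in AG. CG 1 was the lowest library in RuBisCO and in RibL5. What separated the RuBisCO groups relative to RibL5 was not tested. The median SD of the targets within CG was 0.41 on the log2 scale relative to RibL5 and 0.50 relative to the set, and within AG it was 0.20 relative to RibL5 and 0.08 relative to the set. In 5 of the 15 targets the SD within CG was larger relative to RibL5. Without CG 1 the median SD within CG was 0.10 relative to RibL5 and 0.07 relative to the set, from 2 libraries.

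**Figure D3:**
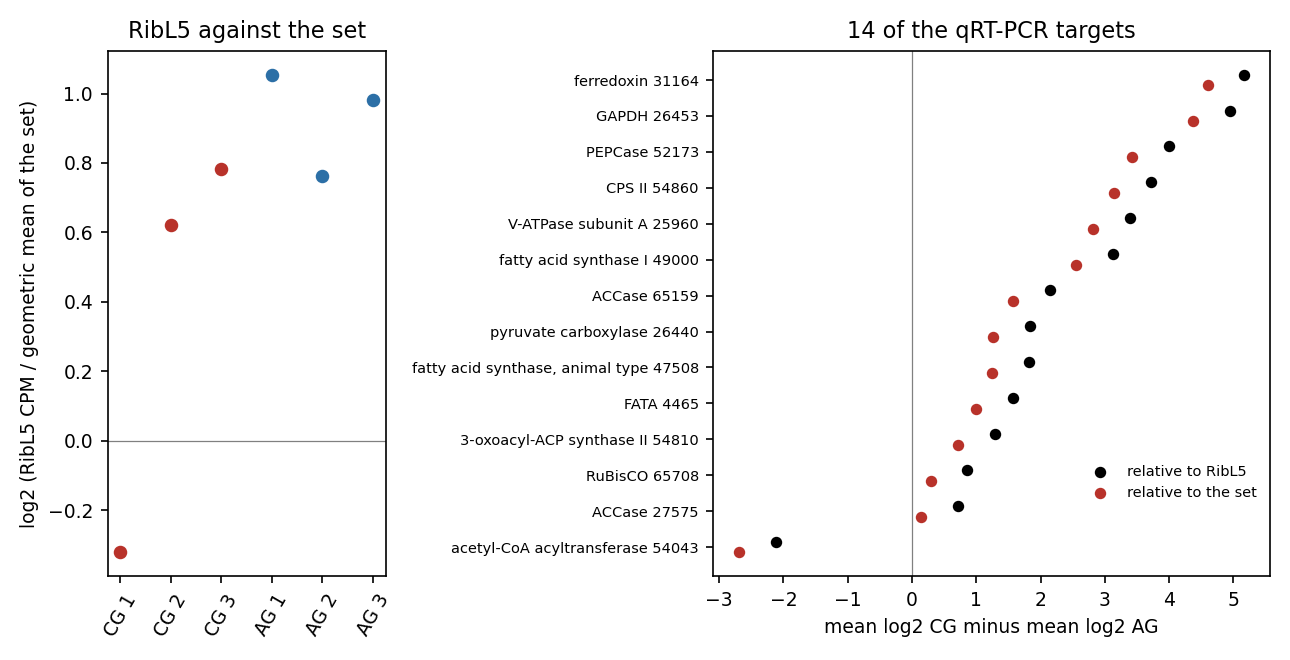
Left, log2 ratio of RibL5 CPM to the geometric mean CPM of the 211 members in each library, CG in red and AG in blue, with CG 1 below 0 and the other libraries above it. Right, mean log2 CG minus mean log2 AG of 14 of the qRT-PCR targets relative to RibL5 (black) and relative to the set (red); the black points lie to the right of the red ones in every gene, by 0.57.

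A small range over all libraries still left room for ordered differences between the CO2 levels. In 61 members (28.9%) the groups did not overlap, with all CG above all AG in 29 and all CG below all AG in 32. Over the 8637 genes tested, 62.0% did not overlap, 34.7% with CG above and 27.3% with CG below, and 68.6% of the abundant genes did not. The rule used both groups, so nothing is read from the lower share. Gene 53984 had the largest difference upward, with 395, 392 and 401 CPM in CG and 315, 314 and 318 CPM in AG, a log2 ratio of mean CPM of 0.33. The libraries within each group were closer to each other than the groups were. Gene 64653 had 143, 146 and 147 CPM in CG and 113, 118 and 119 CPM in AG. Gene 46693 had 132, 139 and 139.8 CPM in CG, and 112, 113 and 111 CPM in AG.

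The largest difference downward was that of gene 66174, with 102, 102 and 116 CPM in CG and 131, 132 and 131 CPM in AG, a log2 ratio of -0.30. Gene 52434 had 159.7, 151 and 155 CPM in CG, and 189, 185 and 194 CPM in AG. Gene 27155 had 342, 344 and 348 CPM in CG, and 393, 427 and 421 CPM in AG. All 3 had CG libraries below every AG library. For the whole set the log2 ratio ran between -0.30 and 0.33 with a median of 0.01, and it was within 0.1 of 0 in 115 members. For the 61 members without overlap its size was 0.04 to 0.33, with a median of 0.19.

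**Figure D4:**
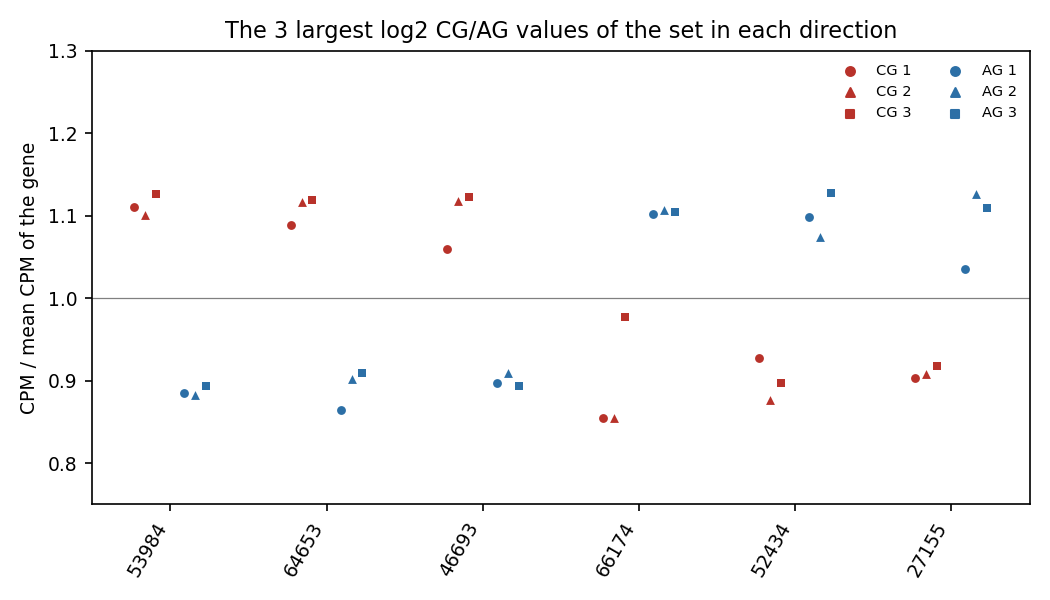
CPM of each library divided by the mean CPM of the gene (vertical axis, not starting at 0), CG left of AG, for the 3 members with the largest log2 ratio of CG to AG (53984, 64653, 46693) and the 3 with the smallest (66174, 52434, 27155). The CG and AG points do not overlap in any of the 6 genes.

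With edgeR's TMM scaling, 11 members (5.21%) passed an adjusted p of 0.05, 0 higher and 11 lower in CG, beside 52.2% of all genes tested. As the rule used this contrast, the share is a description. The direction depended on the scaling: with library sums alone 5 were higher and 2 lower. Over all genes tested, that scaling gave 2641 higher and 1875 lower. TMM factors were 1.02 to 1.04 in CG and 0.961 to 0.990 in AG, and the median edgeR log2 fold change of the members was -0.07, against -0.01 over all genes tested. Without CG 1, 46 members passed, 5 higher and 41 lower, beside 5946 of all genes tested, 2963 higher and 2983 lower. With TMM-scaled CPM 221 genes met the rule, with 174 of the 211 among them, and 173 members met it under library sums, TMM and DESeq2 size factors alike. Of these, 52 stayed within 1.2 under all 3 scalings. The 10 flattest genes met the rule under each scaling, but only 3 of them were among the 10 lowest ratios with TMM. Gene 53991 had a ratio of 1.11 with TMM, against 1.04 by CPM, and gene 33883 had 1.06 with TMM. Over the 3 scalings, gene 35259 had the smallest maximum ratio of the members, 1.08.

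No library stood outside the rule, but each can be left out of it in turn. Of the 448 genes that met the rule without CG 1, 46.7% still met it once CG 1 was added. The share was 85.1% for CG 2 and 77.8% for CG 3, and 85.7, 85.9 and 87.9% for AG 1, AG 2 and AG 3. CG 1 was the highest or the lowest library in 83 members, and each other library in 61 to 78. The members held 4.28, 4.33 and 4.35% of all counts in CG 1, CG 2 and CG 3, and 4.28, 4.36 and 4.29% in AG 1, AG 2 and AG 3. These shares are close to each other by the rule, which fixes the level of each member.

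The thresholds cut through a continuum. Just inside the ratio limit were genes 41231 (1.2969), 46553 (1.2988) and 29904 (1.2988), and just outside it were 26921 (1.3002), 28383 (1.3008) and 64330 (1.3023). Just inside the abundance limit were 66706 (100.2 CPM), 26259 (100.4 CPM) and 58168 (100.5 CPM), and just outside it were 48681 (99.9 CPM), 26120 (99.5 CPM) and 26592 (99.3 CPM). Genes on either side of a limit differed in that value by less than counting error.

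The share of members was given by abundance and by transcript length, neither of which the ratio uses. Members made up 13.4% of genes with 100 to 150 CPM (107 of 797), 8.18% with 150 to 300 CPM, 6.54% with 300 to 600 CPM and 3.28% with 600 CPM or more (8 of 244). The median of the mean CPM was 148 in members and 190.1 in the other abundant genes. By transcript length, the share was 4.56% under 1000 nt (17 of 373), 8.38% at 1000 to 2000 nt, 10.9% at 2000 to 4000 nt and 17.2% at 4000 nt or more (29 of 169). Median length was 2025 nt in members, against 1692 nt in the other abundant genes and 1221 nt in all genes. The median RPKM was 77.5 in members, against 125 in the other abundant genes. No test was made of these shares, and the median count per library was 627, 661, 745 and 708 in the 4 length classes from short to long.

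**Figure D5:**
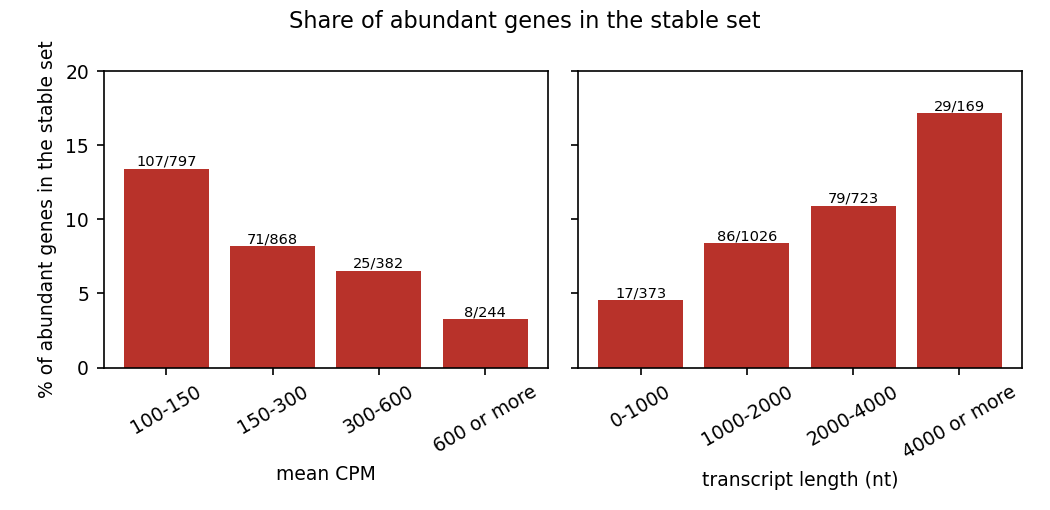
Percent of abundant genes that belong to the stable set (vertical axis) by mean CPM (left) and by transcript length in nt (right); the labels give members over abundant genes. The bars fall to 3.28% in the most abundant class and climb to 17.2% in the longest.

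The places of the members in the genome were counted, but not those of other gene sets of this size, so nothing is read from them. All 211 were matched to locus tags of the RefSeq annotation and lay on 28 of the 29 scaffolds that hold genes of the table. Of the members, 16 formed 8 pairs of direct neighbours, among them gene 47354, one of the 10 flattest, beside gene 15265. Fractional counts occurred in 34 members (16.1%), in 16.2% of the other abundant genes and in 12.8% of all genes. Genes 45814 and 47384 had the same length of 3180 nt and the same deposited counts in 5 libraries. In CG 3 they had 368.667 and 366.667 counts. Their reads may not be separable, so they are uncertain as 2 members. Reads of both strands were counted, so the reads of a member can include those of an antisense transcript.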

How the data were processed

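Per the study's methods, the authors mapped clean DGE reads with Bowtie (version not given in the sources used here) to C-169 transcripts from Phytozome with 1 mismatch allowed, on both strands. The deposited expected counts, some of them fractional, were used as deposited for CPM and rounded for tests. The RPKM values were computed by the authors from the counts, and transcript length was recovered from the ratio of count to RPKM. The deposited log2 fold changes, FDR values (adjusted p-values) and group means are the authors' own comparison and were not used.

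Members and lists were chosen with earlier results of these data known. CG was compared with AG by edgeR 4.0.16 in R 4.3.3 (quasi-likelihood test, robust, TMM, filterByExpr, Benjamini-Hochberg over 8637 genes). The common biological coefficient of variation was 0.186. The fit was tested on data simulated with less spread than this coefficient and with no outlying library. That test therefore does not cover a library such as CG 1. Alternatives were DESeq2 1.42.0, limma 3.58.1 on log2(RPKM + 1), other scalings, limits and filters, a replicate block and each library left out. Python 3.11.15, pandas 2.3.3 and matplotlib 3.10.9 served for tables and figures. P-values set the difference of CG and AG against the spread among 3 libraries per group, with the spread estimated in part across genes.

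Named were RibL5, the 10 members with the lowest ratio, the 5 with the highest mean CPM, the 3 on each side of each limit, the 3 with the largest log2 ratio in each direction, and up to 4 qRT-PCR targets. Functional lists and conventional reference genes had been planned by product name, but product names were at hand only for the genes that the study's text, primer list or supplement describes, so these lists were not analysed here. GC content and exon number were not analysed here either. RefSeq (Coccomyxa subellipsoidae v2.0) served for locus tags and neighbours, and 9372 genes matched. Withheld items are not reported here: they stay in the totals over all genes, members and targets, and are left out of the tally of genes the study names.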

Additional observations from a re-analysis of the deposited data

How the results depend on the processing

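The size of the set depended on its limits: 86 genes at a ratio of 1.2, 518 at 1.5, 425 at a mean of at least 50 CPM and 61 at a mean of at least 200 CPM. At a mean of at least 100 RPKM it held 93 genes, 78 of them members. RPKM leaves the ratio of a gene unchanged, so there only the abundance limit differed. Leaving out 1 library gave 239 to 448 genes, the highest without CG 1. RibL5 had a log2 fold change of -0.80 to -0.31 with 1 library left out, and passed the threshold only without CG 1 (-0.31). Relative to the set it was -0.78 to -0.23 with 1 library left out, and -0.55 with the 10 flattest genes. Genes called between CG and AG numbered 4512, and 3471 to 5946 with 1 library left out. Of the 15 targets 11 were called, and 9 to 15 with 1 library left out. Members called numbered 11, and 0 to 46 with 1 library left out, 7 with library sums and 2 with limma. All genes called numbered 4516 with library sums and 4442 with limma. Across genes, the deviations of same-numbered CG and AG libraries correlated at -0.04, 0.04 and -0.05, so the numbers were not taken as pairs. With a replicate block 4071 genes, 10 targets and 0 members were called, and RibL5 was at -0.64. Of the named members' log2 ratios with TMM or size factors, 42 of 52 moved by over 1 SD between replicates. Each scaling divides a whole library by 1 factor, so all of these ratios moved down by a similar amount. With TMM, gene 53991 went from -0.01 to -0.10 and gene 53984 from 0.33 to 0.24. The planned list alternative was not run. The cause of the other changes with the processing was not tested. At 3 libraries per group and about 100 CPM, differences of a few percent were not resolved.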
